A study of Mus musculus with 2 samples.

Results

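The genes described here are the heavy-chain constant genes Ighm, Ighd, Igha, Ighg1, Ighg2b, Ighg2c and Ighg3, the light-chain constant genes Igkc and Iglc2, and Jchain. They were taken by symbol from the feature table of the deposited matrices, and all 10 were found among its 26124 genes. The table holds 263 immunoglobulin features in all, Jchain included. The data are 2 droplet single-cell RNA-seq libraries of spleen cells bound by anti-F4/80 beads after lysis of red cells, each from 1 untreated mouse aged 12 to 16 weeks. Both mice were homozygous for the Hba tm1Paz allele, which removes the mouse α-globin genes, and both carried the human transgene Tg(HBA-HBBs)41Paz. The control, labelled wild-type, was heterozygous for the Hbb tm1Tow allele, hemizygous for the transgene and non-sickling. The SCD mouse was homozygous for both and sickling. The control is therefore itself a mutant, and with 1 mouse per library no difference between the libraries has a replicate check, so no test and no p-value is given.

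An antibody is built from a pair of heavy and a pair of light chains, each with a variable and a constant region. A naive B cell makes IgM and IgD from a single primary transcript by splicing and polyadenylation, and class switching later replaces Ighm by an IgG, IgA or IgE constant gene. The light chain is κ or λ. A B cell keeps its antibody in the membrane, while a plasma cell secretes it in large amounts. The J chain, made by plasma cells, links the units of IgM pentamers and IgA dimers. In the spleen, follicular B cells lie in the follicles of the white pulp and marginal zone B cells at its border, and short- and long-lived plasma cells lie in the red pulp among its macrophages.

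The heavy-chain genes lie on the minus strand of mouse chromosome 12 in the GRCm38 build, from Ighm (chr12:113418558-113422730), the first downstream of the variable segments, to Igha (chr12:113254830-113260236), the last. Ighd (chr12:113406604-113416324), Ighg3 (chr12:113356224-113361232), Ighg1 (chr12:113325240-113330523), Ighg2b (chr12:113302965-113307933) and Ighg2c (chr12:113285325-113288932) lie between them in this order. Igkc (chr6:70726435-70726966) is on the plus strand, and Iglc2 (chr16:19198396-19200351) and Jchain (chr5:88519809-88527891) are on the minus strand. The feature table has no Ighg2a, the allele that some strains carry in place of Ighg2c.

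The secreted forms of IgM and IgA end in a tailpiece that the J chain binds, and the sequences are shown because IgM and IgA are the only isotypes that the plasma cells below carried. In the GENCODE M21 annotation of GRCm38, 59 coding bases at the end of the last constant exon occur in the secreted but not in the membrane transcript of Ighm, and 59 in Igha. In each of the 4 Ighg genes only 5 bases do. The bases below run to the stop codon, and capitals mark the codon of the penultimate residue, a cysteine that binds the J chain (chr12:113420867-113420928 for Ighm and chr12:113258768-113258829 for Igha, both on the minus strand).
Ighm: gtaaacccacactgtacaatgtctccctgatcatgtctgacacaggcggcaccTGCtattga
Igha: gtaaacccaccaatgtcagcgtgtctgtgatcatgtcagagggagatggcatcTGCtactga
The 3' counts do not separate the membrane from the secreted transcript of a gene.

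The λ constant genes matter for how the light-chain counts can be read. The coding sequences of Iglc2 and Iglc3 differed at 11 of 314 aligned bases (96.5% identity), whereas Iglc1 and Iglc2 shared 74.8%. The last 150 coding bases, where 3' reads fall, held 4 differences, marked by capitals (chr16:19198539-19198688 for Iglc2 and chr16:19065368-19065517 for Iglc3, minus strand).
Iglc2: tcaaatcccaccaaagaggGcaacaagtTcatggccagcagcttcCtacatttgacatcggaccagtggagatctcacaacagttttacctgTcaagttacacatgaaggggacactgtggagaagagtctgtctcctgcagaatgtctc
Iglc3: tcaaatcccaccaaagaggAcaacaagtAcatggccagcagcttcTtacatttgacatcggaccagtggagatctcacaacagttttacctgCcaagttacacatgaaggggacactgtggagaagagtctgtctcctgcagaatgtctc
The split of counts between Iglc2 and Iglc3 is therefore uncertain, and the sum of Iglc1, Iglc2 and Iglc3 was used for the λ chain. Among the IgG genes, Ighg2b and Ighg2c were the most alike of the 6 pairs, at 85.9% identity over 1004 aligned bases.

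The library labelled wild-type (WT) held 145953464 UMIs in 24144 barcodes, of which 19419 were kept, and the SCD-labelled library held 73986356 UMIs in 15442 barcodes, of which 12280 were kept. The libraries shared 107 barcodes. The β-globin genes went against the labels. In erythroid-like cells Hbb-bs had 171 counts per 1000000 UMIs (CPM) in the WT-labelled library and 69513 CPM in the SCD-labelled library, and Hbb-bt had 298 and 21663 CPM, although the Hbb tm1Tow allele removes the mouse β-globin genes and the SCD mouse carries it on both chromosomes. The libraries are therefore called WT-labelled and SCD-labelled throughout, and every direction between them rests on those labels. Over all kept cells the WT-labelled library held 39728 UMIs of Ighm, 26484 of Igkc and 1568 of Jchain, and the SCD-labelled library held 93709, 78398 and 5148. Ighg1, at 6 and 48 UMIs, and Ighg2c, at 5 and 28 UMIs, were almost uncounted. CPM was taken over the summed UMIs of the cells of a group. A UMI stands for a captured 3' end, so CPM does not grow with transcript length. Intervals are exact 95% intervals for counting error only.

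B lymphocyte-like cells were the 520 cells of the WT-labelled library and 1729 of the SCD-labelled library in a cluster led by Cd79a and Ms4a1, which was formed without immunoglobulin genes. They made up 2.68% and 14.1% of the kept cells, shares that the F4/80 beads can set. A smaller B lymphocyte-like cluster of 82 and 307 cells was called as doublets in 87.4% of its cells, and a cluster led by Ms4a1 and Fcmr with 444 and 283 cells was left unnamed. The unnamed cluster held 22.6% of all Ighm UMIs in the WT-labelled library and 5.6% in the SCD-labelled library, and these cells were not counted as B cells.

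In B lymphocyte-like cells Ighm and Igkc were the most abundant of the genes, and their levels were similar in the libraries. Ighm was at 6662 CPM in the WT-labelled library and 6904 CPM in the SCD-labelled library, a log2 ratio of SCD over wild-type of 0.05 (interval 0.02 to 0.08). Igkc was at 4886 and 6047 CPM, with a ratio of 0.31 on the same scale (0.27 to 0.35). The signaling chain Cd79a, which pairs with membrane immunoglobulin, was at 1982 and 2262 CPM. The size of both differences depended on which cells were placed with the B cells. Over 9 alternatives of filter, doublets, clustering and scaling the log2 ratio ran from −0.0028 to 0.77 for Ighm, below 0 in 1 of them, and from 0.14 to 1.05 for Igkc.

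Ighd, whose IgD marks mature naive B cells, was at 841 CPM in the WT-labelled library and 1412 CPM in the SCD-labelled library, a log2 ratio of 0.75 (0.66 to 0.84) that ran from 0.52 to 1.52 over the same alternatives. Relative to Ighm, the cells held 12.6 Ighd UMIs per 100 Ighm UMIs in the WT-labelled library and 20.4 in the SCD-labelled library. Unlike the CPM, this ratio was close in the B clusters not counted here, at 11.6 and 19.7 in the cluster led by Ms4a1 and Fcmr and at 11.9 and 20.5 in the cluster of doublets. Ighm and Ighd UMIs were both found in 69.4% of B lymphocyte-like cells of the WT-labelled library and in 87.7% of the SCD-labelled library, at a median of 2178.5 and 2895 UMIs per cell.

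The B cells were then split by Fcer2a, which encodes CD23 and marks follicular B cells. In the WT-labelled library, the 232 cells with an Fcer2a UMI had 23.3 Ighd UMIs per 100 Ighm UMIs and the 288 cells without one had 7.48. In the SCD-labelled library, the 966 cells with Fcer2a had 28.6 and the 763 cells without had 12.5. Ighd was thus higher relative to Ighm in cells with Fcer2a in both libraries and higher in the SCD-labelled library on both sides of the split. Iglc2 was lower in cells with Fcer2a, at 1145 against 2633 CPM in the WT-labelled library and at 1174 against 1533 CPM in the SCD-labelled library. Median depth was 1961.5 and 2454 UMIs in the first library and 2777.5 and 3043 in the second, so cells without Fcer2a were not the shallower ones. Markers of B cell subsets moved in both directions between the libraries. Beside Ighd, follicular markers had log2 ratios of 0.12 for Fcer2a and 1.06 for Ms4a4c. The marginal zone markers had 0.21 for Cr2, 0.60 for Cd1d1, −0.48 for Dtx1, −0.18 for S1pr3, −0.29 for Myof and −0.57 for Plac8. The transitional markers had 1.55 for Cd93, on 11 and 140 UMIs, and 0.69 for Vpreb3, and the B1 markers had −0.81 for Bhlhe41, −0.44 for Zbtb32 and −1.47 for Cd5, on 7 and 11 UMIs.

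Switched B cells were rare in both libraries. A cell was assigned the heavy-chain gene with the most UMIs, given at least 5 UMIs and at least 50% of its heavy-chain constant UMIs. In the WT-labelled library, 467 of 520 cells were called Ighm (89.8%), 12 Ighd and 13 Ighg2b (2.5%, interval 1.34 to 4.24%). In the SCD-labelled library, 1568 of 1729 were called Ighm (90.7%), 61 Ighd, 44 Ighg2b (2.54%, 1.86 to 3.4%), 10 Ighg3, 2 Ighg1 and 1 Igha. The switched share was 2.5% (1.34 to 4.24%) and 3.3% (2.51 to 4.25%). These intervals overlap, but they hold counting error only and no spread between mice.

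Ighg2b, the IgG2b heavy chain, was the main switched isotype among the genes counted. The paper states that SCD mice of this strain have a mixed genetic background. Cells switched to Ighg2a, which the feature table lacks, could not be called as such, which also limits the switched shares. Cells called Ighg2b held a median of 10 Ighg2b UMIs in the WT-labelled library and 16 in the SCD-labelled library, with up to 32 and 60. Of them, 9 of 13 and 19 of 44 had no Ighm UMI, and 13 of 13 and 37 of 44 had no Ighd UMI. Among cells called Ighm or Ighd, in contrast, 70.8% and 90.7% had an Ighd UMI. The calling rule itself limits how much Ighm and Ighd a cell called Ighg2b can hold, and a cell called Ighd holds Ighd by that rule. The called cells carried 90.6% and 76.5% of the Ighg2b UMIs of the B lymphocyte-like cells, and 7 and 70 further cells with Ighg2b, at a median of 3 and 2 Ighg2b UMIs, were not called Ighg2b.

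**Figure D1:**
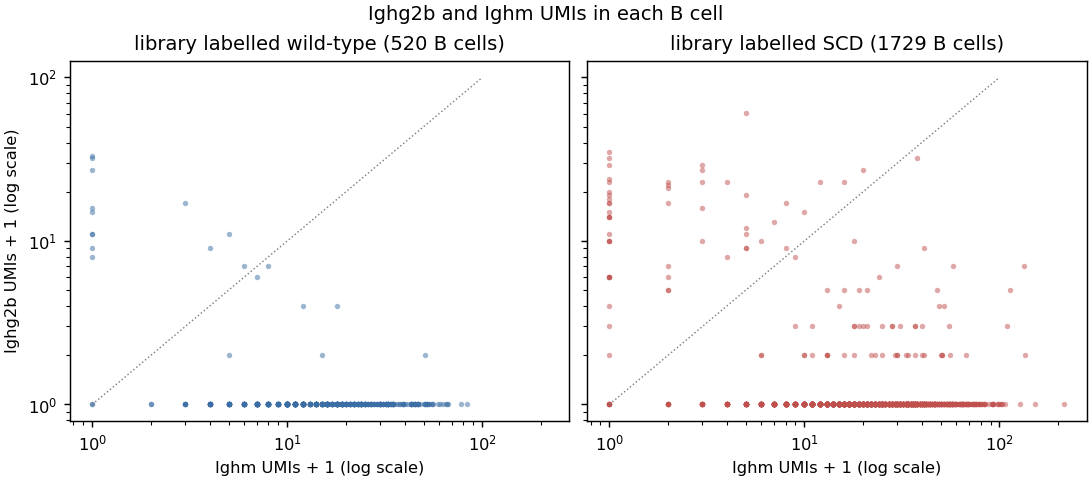
Ighg2b UMIs against Ighm UMIs in each B lymphocyte-like cell, both plus 1 on log axes, for the 520 cells of the WT-labelled library and the 1729 of the SCD-labelled library. The dotted line marks equal counts, and most cells with 5 or more Ighg2b UMIs lie above it.

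Ighg3, the IgG3 heavy chain, was distributed differently. It was at 162 and 174 CPM (log2 ratio 0.11, −0.11 to 0.32), but in the WT-labelled library no B lymphocyte-like cell was called Ighg3, which allows a share of up to 0.577%, and 115 cells held Ighg3 with a median of 1 UMI. In the SCD-labelled library, 10 called cells (0.578%, 0.278 to 1.06%) held a median of 27 and up to 80 UMIs, which was 32.7% of its Ighg3 UMIs, and 355 further cells held a median of 1 UMI. The 10 of 1729 cells and 0 of 520 cells come from 1 mouse each, so no difference between the mice can be read from them. Macrophages of the same libraries held Ighg3 at 0.522 and 1.8 CPM.

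Igha and Jchain UMIs in B lymphocyte-like cells were few and stood near the level in macrophages of the same library. Igha had 6 UMIs in the WT-labelled library and 151 in the SCD-labelled library (4.45 and 25.7 CPM, log2 ratio 2.53, 1.38 to 4.00). After thinning each cell to 1000 UMIs, 2.16% of the B lymphocyte-like cells of the SCD-labelled library had an Igha UMI, against 2.28% of its red pulp macrophage-like (RPM-like) cells. Jchain had 3 and 50 UMIs, and after thinning 0.992% of B lymphocyte-like and 0.9753% of RPM-like cells of the SCD-labelled library had 1. At that level they are not counted as expression by B cells here, apart from the 1 cell called Igha, with 7 Igha UMIs and no Ighm UMI. The part of free RNA in them was not tested. Ighg1 had 0 and 37 UMIs, of which the 2 called cells held most, and Ighg2c had 0 and 18.

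Counted by fold, 7 of the 10 genes had at least 100 UMIs in B lymphocyte-like cells, and 1 of them, Igha, was past a log2 ratio of 1 towards the SCD-labelled library, where 1.31% of all 7786 genes with as many UMIs were past it. None was past it towards the WT-labelled library, where 0.95% of all genes were. Over the 7 genes the log2 ratios had a median of 0.11, against 0.07 over all 7786. Of the genes of the B cell receptor complex and co-receptor, 12 of 12 had enough UMIs and none passed in either direction. The most abundant were Cd79a, Cd79b at 1509 and 1788 CPM, the complement receptor Cr2 at 725 and 838 CPM, and the kinase Syk at 600.4 and 597 CPM. Of the class switch and hypermutation genes, 9 of 12 had enough UMIs and none passed either. Abundant genes of that list were Rif1 at 65.2 and 60.5 CPM, Trp53bp1 at 46.7 and 47.2 CPM and Apex1 at 37.1 and 30.2 CPM. Of the immunoglobulin receptors, 8 of 11 had enough UMIs, and the cytosolic antibody receptor Trim21 alone passed, at 10.4 and 23.4 CPM (log2 ratio 1.17, 0.37 to 2.08). The IgM receptor Fcmr, at 599.6 and 678 CPM, and the IgE receptor Fcer2a were the most abundant of them.

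The λ chain took a larger part of the light-chain UMIs in the WT-labelled library. Iglc2 was at 2054 CPM there and 1338 CPM in the SCD-labelled library, a log2 ratio of −0.62 (−0.68 to −0.55). When each library was clustered on its own the ratio was 0.05, so the direction of the Iglc2 level rested on the choice of B cells. By the split above, Iglc2 was at 1145 and 1174 CPM in cells with Fcer2a and at 2633 and 1533 CPM in cells without. Of the light-chain constant UMIs of B lymphocyte-like cells, 43.1% (42.2 to 44.0%) came from Iglc1, Iglc2 and Iglc3 in the WT-labelled library and 31.2% (30.8 to 31.6%) in the SCD-labelled library. Cells with at least 80% of their light-chain UMIs from these genes, among those with at least 10 light-chain UMIs, were 45 of 432 (10.4%, 7.70 to 13.7%) and 48 of 1620 (2.96%, 2.19 to 3.91%). The intervals do not overlap, but they hold counting error only and no spread between mice. Those of the UMI shares also treat the UMIs of 1 cell as independent, so they hold no spread between cells. A clone cannot be told from many cells here, and each share comes from 1 mouse.

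The cells did not fall into pure κ and pure λ cells. The λ share of a cell peaked between 20 and 30%, with 107 of 432 cells in the WT-labelled library and 477 of 1620 in the SCD-labelled library, and a second group of 41 and 38 cells lay at 90% or more. Outside the λ cells, Iglc2 was found in 86.0% and 90.1% of the cells at a median of 3 UMIs, or at 1356 and 1227 CPM, and Iglc3 at 946 and 982 CPM. RPM-like cells of the same libraries held far less Iglc2, at 5.46 and 15.7 CPM. In the other direction, λ cells held a median of 1 Igkc UMI, at 373 and 565 CPM. By the gene with the most UMIs, 34 of the 45 λ cells of the WT-labelled library were led by Iglc2, 9 by Iglc1 and 2 by Iglc3, and 25, 15 and 8 of the 48 of the SCD-labelled library. In plasma cell-like cells, where Igkc ran up to 4400 UMIs, the λ share was 1.34% and 1.59% in sum.

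**Figure D2:**
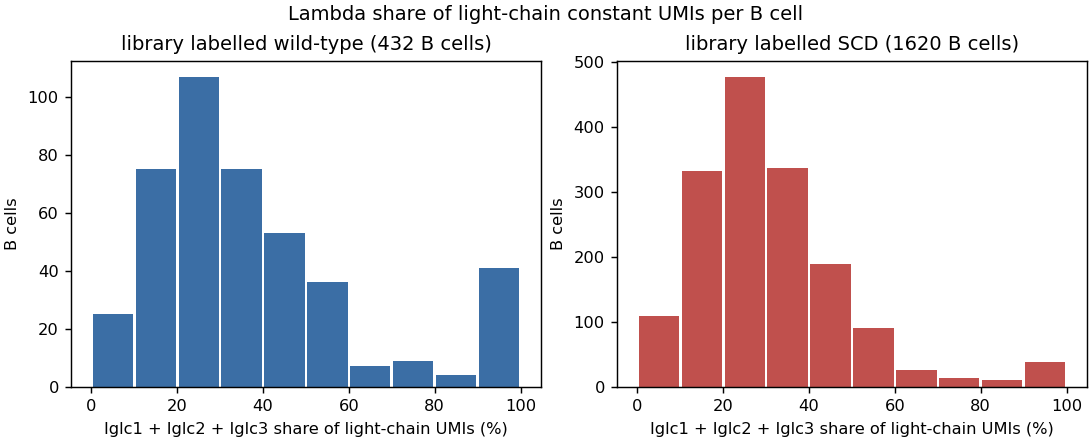
Number of B lymphocyte-like cells by the share of their light-chain constant UMIs that came from Iglc1, Iglc2 and Iglc3, in steps of 10%, for cells with at least 10 light-chain UMIs (432 and 1620 cells). Both libraries peak between 20 and 30%, and the group at 90% or more holds 41 of 432 and 38 of 1620 cells.

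Plasma cells were few but carried most of some genes. Cells with UMIs of at least 7 of 11 plasma cell markers (Sdc1, Tnfrsf17, Mzb1, Derl3, Xbp1, Prdm1, Eaf2, Fkbp11, Txndc5, Edem1 and Irf4), none of them an immunoglobulin gene, were called plasma cell-like. They were 3 of the 19419 kept cells of the WT-labelled library (0.0154%, 0.00319 to 0.0451%) and 11 of the 12280 of the SCD-labelled library (0.0896%, 0.0447 to 0.16%). They did not cluster together and were taken out of the clusters in which they lay. In the WT-labelled library they held 31.1% of all Igkc, 92.0% of all Igha and 93.6% of all Jchain UMIs of the kept cells, and in the SCD-labelled library 32.0% of Igkc, 18.7% of Igha and 87.0% of Jchain. Scrublet called 10 of the 11 cells of the SCD-labelled library doublets and none of the 3 of the other library, where the threshold was set differently. Just below the limit, 4 and 4 kept cells had 6 of the 11 markers. Under the limit, 0 kept cells of the WT-labelled library and 1 of the SCD-labelled library had over 10% of their UMIs from immunoglobulin genes. The limit therefore did not take every kept cell rich in immunoglobulin.

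IgM was the isotype of nearly all of them. In the WT-labelled library, 2 cells held 1983 and 1108 Ighm UMIs with no Igha UMI, and the third held 2101 Igha UMIs with no Ighm UMI. In the SCD-labelled library, 10 cells were called Ighm, with 535 to 5329 Ighm UMIs (median 2006.5 over the 10). The other cell held 195 Igha UMIs and no Ighm UMI. No cell was called IgG, with Ighg2a not in the feature table, and no cell held an Ighg1, Ighg2b or Ighg2c UMI. In every cell of the 14 the leading heavy-chain gene made up at least 99.8% of the heavy-chain constant UMIs. IgM and IgA calls did not overlap: no cell held more than 1 Igha UMI beside Ighm.

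All of them used the κ chain. Igkc stood at 970, 2861 and 4400 UMIs in the 3 cells of the WT-labelled library and at 975 to 4172 in the 10 IgM cells of the SCD-labelled library, and the λ share of light-chain UMIs was at most 3.93%. Immunoglobulin genes made up 31.8, 32.4 and 52.5% of all UMIs in the 3 cells and 18.1 to 59.4% in the 10 cells. The IgA cell of the SCD-labelled library stood apart, with 6.21% of its UMIs from immunoglobulin genes and 413 Igkc UMIs. It held no Sdc1 UMI and lay in the cluster led by Fn1 and F13a1.

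Jchain was found in each of the 14 cells. It had 135, 163 and 1170 UMIs in the WT-labelled library, the highest in the IgA cell, and 76 to 1199 UMIs in the 10 IgM cells of the SCD-labelled library (median 361). Relative to the heavy chain, the cells held 6.8, 14.7 and 55.7 Jchain UMIs per 100 heavy-chain UMIs in the WT-labelled library and 8.13 to 77.4 in the 10 cells (median 19.96). The IgA cell of the SCD-labelled library held 20 Jchain UMIs, or 10.3 per 100, so both IgA cells lay within the range of the IgM cells.

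**Figure D3:**
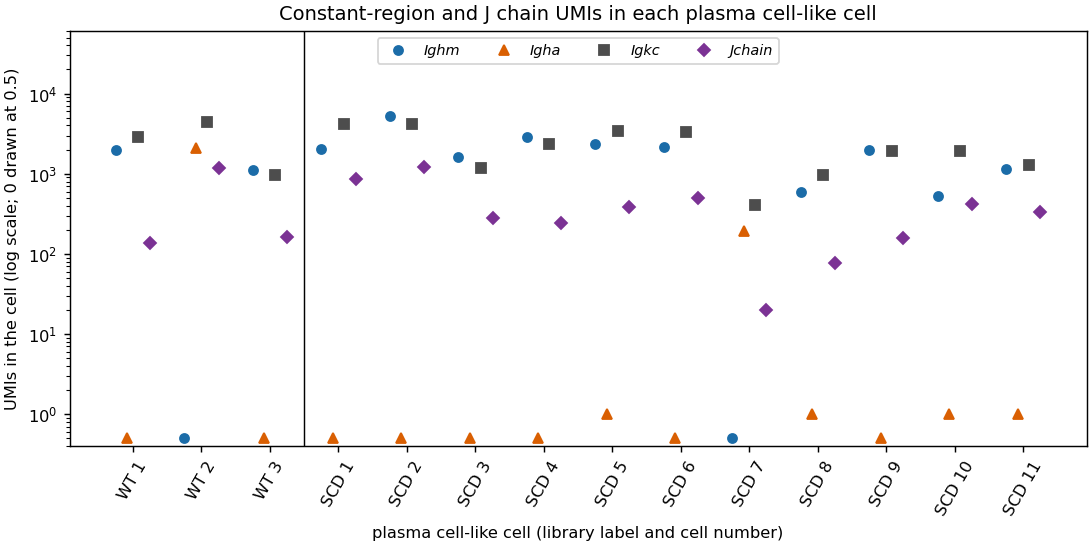
UMIs of Ighm, Igha, Igkc and Jchain in each of the 3 plasma cell-like cells of the WT-labelled library (WT) and the 11 of the SCD-labelled library, on a log axis with 0 drawn at 0.5. Ighm exceeds 500 UMIs in 12 cells and is 0 in the 2 cells with Igha, and Jchain runs from 20 to 1199 UMIs.

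Genes of the secretory pathway were higher in these cells than in B cells. In the SCD-labelled library, 15 of 15 secretory genes were higher in plasma cell-like than in B lymphocyte-like cells, at a median of 5.82-fold, from 2.32-fold for Ostc to 32.3-fold for Creld2. The median over all 7286 genes with enough UMIs was 0.505-fold. The immunoglobulin genes described here and Jchain summed to 404422 CPM in plasma cell-like and 16086.5 CPM in B lymphocyte-like cells of this library. That lowers the CPM of other genes in plasma cell-like cells, and so this median. The cells had also been selected for plasma cell markers, among them Xbp1, Derl3, Edem1, Txndc5 and Fkbp11. How far this selection set the difference in secretory genes was not tested. Hsp90b1, a chaperone of the endoplasmic reticulum, was at 7956 against 919 CPM, and Pdia4, which forms disulfide bonds, at 1382 against 181 CPM. Mzb1, a chaperone of IgM in plasma cells, was found in 1 of the 14 cells, and Tnfrsf17, a survival receptor of plasma cells, in 6. In B lymphocyte-like cells Mzb1 also had only 0 and 3 UMIs, so a count of 0 for Mzb1 says little here. Between the libraries, none of the 15 genes was past a log2 ratio of 1 in B lymphocyte-like or in RPM-like cells.

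The limits of 500 and 5000 genes per cell left out further barcodes rich in immunoglobulin. Outside the kept range, 5 barcodes of the SCD-labelled library and none of the other library had over 10% of their UMIs from immunoglobulin genes. A pair of them had 10 of the 11 markers, 42512 and 39482 UMIs, and 2784 and 4920 Ighm UMIs, with 1256 and 1930 Jchain UMIs. This pair held over 5000 genes each and was not scored for doublets. The other 3 held 691 to 1137 UMIs in fewer than 500 genes, with 2 called Ighm and 1 called Igha at 247 UMIs.

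In RPM-like macrophages all of the genes were low, and the 6 with at least 100 UMIs were higher in the SCD-labelled library. In RPM-like cells, 4785 of the WT-labelled library and 1684 of the SCD-labelled library, Ighm was at 25.7 and 91.1 CPM (log2 ratio 1.82, 1.65 to 2.00) and Igkc at 15.7 and 97.2 CPM (2.63, 2.43 to 2.83). Igha was at 1.86 and 17.5 CPM (3.24, 2.67 to 3.84), Jchain at 1.45 and 10.3 CPM (2.83, 2.16 to 3.54), Ighd at 2.84 and 15.4 CPM (2.44, 1.95 to 2.95) and Iglc2 at 5.46 and 15.7 CPM (1.52, 1.12 to 1.93). No Ighg1 UMI was counted in either library. The RPM-like cells came from different clusters in the libraries, those led by Abcc5 and Ank2 and by Marco and Cd5l in the WT-labelled library and that led by Rgs1 and Adamdec1 in the SCD-labelled library. Of the 10 genes, 6 had at least 100 UMIs and all 6 were past a log2 ratio of 1 towards the SCD-labelled library, where 9.15% of all 10030 genes were. None was past it in the other direction, where 4.19% of all genes were. The median was 2.53 for the 6 genes and 0.20 for all.

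Each of the genes was found in a minority of these macrophages. After thinning to 1000 UMIs per cell, 2.93% of 4097 RPM-like cells of the WT-labelled library and 10.0% of 1538 of the SCD-labelled library had an Ighm UMI, and 1.71% (1.33 to 2.15%) and 11.1% (9.59 to 12.8%) had an Igkc UMI. Without thinning, an Igkc UMI was found in 4.58% and 32.3%, at a median of 2141 and 4075 UMIs per cell. Thinning left out 688 and 146 shallower cells. Cells with a UMI held a median of 1. Over 10 immunoglobulin UMIs per 1000 UMIs were found in 0 and 1 cells, and without that cell Igkc was at 95.4 CPM in the SCD-labelled library. With barcodes of at least 200 genes and no upper limit, Ighm was at 51.6 and 151 CPM, still higher in the SCD-labelled library.

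The level was next set against that of the whole library. Over all kept cells, Ighm was at 370 and 1444 CPM and Igkc at 247 and 1208 CPM. RPM-like cells therefore held 6.95% and 6.31% of the library's mean level of Ighm, and 6.38% and 8.05% of that of Igkc. For Iglc2 the shares were 7.41% and 8.95%, for Jchain 9.93% and 12.97%, and for the B cell genes Cd79a and Ms4a1 5.98% and 6.11%, and 6.56% and 4.33%. Igha differed more between the libraries. It was at 8.73% of the library mean in the WT-labelled library and 107% in the SCD-labelled library. A single plasma cell-like cell held 2101 of the 2284 Igha UMIs behind the WT-labelled mean. In the SCD-labelled library plasma cell-like cells held 199 of 1063, so the Igha shares of the libraries do not have a like base. For Jchain, plasma cell-like cells held 93.6% and 87.0% of the UMIs behind the means.

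B cell genes moved with these values. Of the 10 B lymphocyte markers, 5 were past a log2 ratio of 1 towards the SCD-labelled library in RPM-like cells and 1 towards the other, their summed level was 361 and 558 CPM, and none was at 0. Of the 11 plasma cell markers, 4 and 2 were past it, the sum was 492 and 701 CPM, and Tnfrsf17 and Mzb1 were at 0 in both. Mzb1 was almost uncounted in B lymphocyte-like and plasma cell-like cells too. These list counts used no minimum of UMIs, and of the 6 plasma cell markers past it only Prdm1 and Irf4 had at least 100. Of the B cell receptor list, 5 of 12 genes were past it upward, among them Cd79a at 3.83 and 17.5 CPM, and Cd22 downward at 18.2 and 9.0 CPM. Cd79b, at 64.9 and 63.5 CPM, and Lyn, Syk and Cd81, which macrophages also express, stayed within it. The part of free RNA, of attached cells and of expression in the macrophages themselves in the difference was not tested.

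RPM-like cells did carry receptors for antibodies. Fcer1g, the γ chain that Fc receptors share, was at 1326 and 1303 CPM, the neonatal Fc receptor Fcgrt at 431 and 328 CPM, the low-affinity IgG receptor Fcgr3 at 265 and 286 CPM, and Fcgr4 at 142 and 281 CPM (log2 ratio 0.99, 0.91 to 1.07). Of the 7 of 11 receptor genes with enough UMIs, Trim21 alone was past a log2 ratio of 1, at 13.1 and 28.4 CPM (1.12, 0.85 to 1.40). The poly-immunoglobulin receptor Pigr had 5 and 0 UMIs and Fcamr none. Of the class switch and hypermutation genes, 10 of 12 had enough UMIs, none was past it upward, and Ung, a repair enzyme, was past it downward at 7.9 and 3.09 CPM.

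EBI-like cells, in which macrophage and erythroid markers occurred together, held more Ighm and Igkc. Ighm was at 102 and 173 CPM and Igkc at 60.1 and 184 CPM in 5342 and 796 cells. Iglc2 was alike in the libraries, at 23.9 and 23.6 CPM (log2 ratio −0.02, −0.36 to 0.30). Against the level of the whole library these were 27.5% and 11.97% for Ighm and 24.3% and 15.2% for Igkc, and Cd79a was at 32.1% and 9.3%, so EBI-like cells stood higher relative to the WT-labelled library. The classes came from different clusters, since 612 of the 796 cells of the SCD-labelled library lay in a cluster with 11 cells of the other. A cluster with 43.8% called doublets held 1770 of the 3231 Ighm UMIs of the WT-labelled library. Over 10 immunoglobulin UMIs per 1000 were found in 10 cells of the WT-labelled library and 1 of the SCD-labelled library. Without them Ighm was at 90.9 and 134 CPM and Igkc at 54.1 and 122 CPM. The counts were uneven, since the 1% of cells with the most Ighm held 44.1% of the Ighm UMIs in the WT-labelled library and 35.0% in the SCD-labelled library, against 4.6% and 5.1% in B lymphocyte-like cells. Erythroid-like cells held Ighm at 56.6 and 67.0 CPM and Igkc at 38.5 and 65.1 CPM.

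Ighm in monocytes and dendritic cells stood apart from the other genes, though not in these classes alone. The cDC2-like cluster was led by Cd209a and Clec10a, but Ccr2 and Ace, listed for monocytes, were also among its 10 leading genes, and 27.1% of its cells were called doublets. In Ly6c-high monocyte-like cells Ighm was at 404 CPM in the WT-labelled library and 271 CPM in the SCD-labelled library (log2 ratio −0.58, −0.66 to −0.49), in Ly6c-low monocyte-like cells at 207 and 486 CPM (1.23, 1.07 to 1.39), in cDC2-like cells at 347 and 393 CPM (0.18, 0.08 to 0.28) and in mature DC-like cells at 365 and 357 CPM (−0.03, −0.17 to 0.10). Igkc was at 16.3 to 25.1 CPM in these 4 classes in the first library and at 45.1 to 113 CPM in the second. Ighm was thus at 3.11 to 6.06% and 3.93 to 7.04% of its level in B lymphocyte-like cells, but Igkc at 0.334 to 0.514% and 0.746 to 1.86%. The values of 113 CPM and 1.86% are of Ly6c-low monocyte-like cells of the SCD-labelled library, where 1 cell held 157 of 482 Igkc UMIs. That cell also lowers their ratio of Ighm to Igkc given below.

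The ratio of Ighm to Igkc UMIs shows the difference within each library. It was 1.36 and 1.14 in B lymphocyte-like cells, 1.63 (1.40 to 1.91) and 0.937 (0.844 to 1.04) in RPM-like cells, and 1.47 and 1.03 in erythroid-like cells. In Ly6c-high monocyte-like cells it was 24.8 (21.0 to 29.4) and 6.004 (5.24 to 6.90), in Ly6c-low monocyte-like cells 12.5 and 4.31, in cDC2-like cells 15.2 and 6.3, and in mature DC-like cells 14.5 and 4.34. The intervals of the 4 classes lay apart from those of RPM-like cells in both libraries. The part of free RNA in these counts was not tested.

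**Figure D4:**
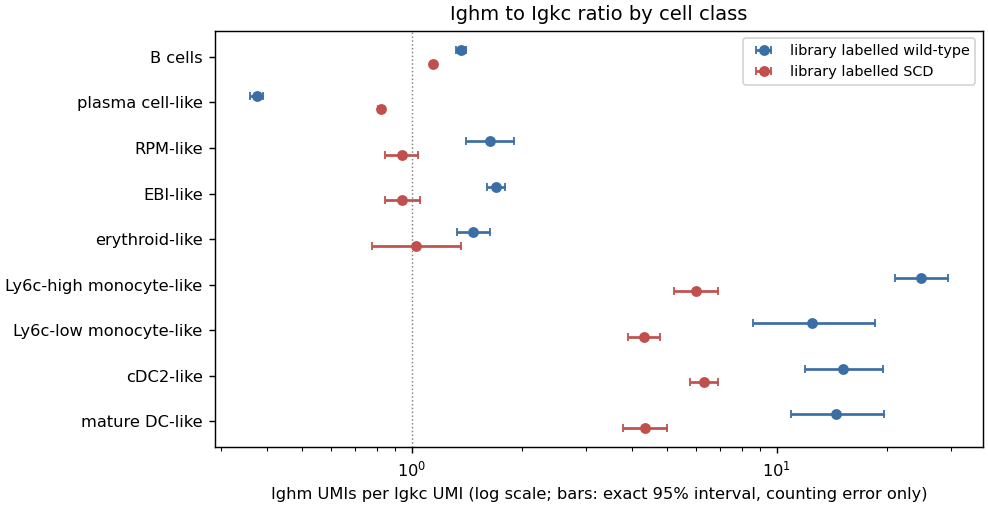
Ighm UMIs per Igkc UMI by cell class and library on a log axis, with exact 95% intervals for counting error. B lymphocyte-like, RPM-like, EBI-like and erythroid-like cells lie between 0.937 and 1.7, and the 4 classes of monocytes and dendritic cells between 4.31 and 24.8.

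The Ighm UMIs of these classes were spread over many cells. After thinning to 1000 UMIs, 32.0% of Ly6c-high monocyte-like cells of the WT-labelled library and 21.4% of the SCD-labelled library had an Ighm UMI, against 1.16% and 5.17% with Igkc and 0.666% and 0.9% with Cd79a. The 1% of cells with the most Ighm held 5.8% and 6.1% of its UMIs, as in B lymphocyte-like cells. Ighd did not accompany it, at 1.96 and 3.48 UMIs per 100 Ighm UMIs. By the rule used for B cells, 290 of 1210 (24.0%) and 70 of 891 (7.86%) of these cells would be called Ighm, and 7 of 4785 and 7 of 1684 RPM-like cells would be given an isotype. An unnamed cluster led by Ffar2 and Kit also had high ratios of Ighm to Igkc, 42.7 in 948 cells of the WT-labelled library and 4.86 in 2286 cells of the SCD-labelled library. A further cluster led by the same genes had 13.3 and 3.85, and that led by Cep55 and Pclaf 6.66 and 3.28. The cluster led by Mpo and Elane had 18.2 (13.6 to 24.7) in 199 cells of the WT-labelled library. A cluster of 481 and 538 cells led by Hbb-bs and Hbb-bt had 5.87 and 2.88. The cluster led by Slfn14 and Tmcc2 had 4.12 and 0.854, and that led by Ms4a1 and Fcmr 1.43 and 1.12. The 10 B lymphocyte markers summed to 172 and 189 CPM in Ly6c-high monocyte-like cells, of which 1 was past a log2 ratio of 1 upward and 1 downward and none was at 0.

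Among these 4 classes, Ighg2b was highest in mature DC-like cells. Its level was 55.6 and 28.7 CPM there (log2 ratio −0.96, −1.37 to −0.54), with 113 UMIs in 67 of 462 cells of the WT-labelled library and 90 UMIs in 48 of 692 of the SCD-labelled library. The most in 1 cell were 5 and 12 UMIs, and the median in cells with a UMI was 1. In the other 3 classes Ighg2b was at 0 to 6.35 CPM. Ighm was at the levels given above, and Cd79a was at 1.97 and 17.9 CPM in the mature DC-like cells. The B cell gene Ms4a1 was at 23.6 and 52.9 CPM there and at 6.06 to 13.6 CPM in the other 3 classes. Of the 10 B lymphocyte markers, 6 were past a log2 ratio of 1 upward and 0 downward there, with no minimum of UMIs. They summed to 212 and 245 CPM. The part of B cell RNA in the Ighg2b counts was not tested. After thinning, 5.8% and 2.81% of the mature DC-like cells had an Ighg2b UMI, against 0.0488% and 0.65% of RPM-like cells.

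**Figure D5:**
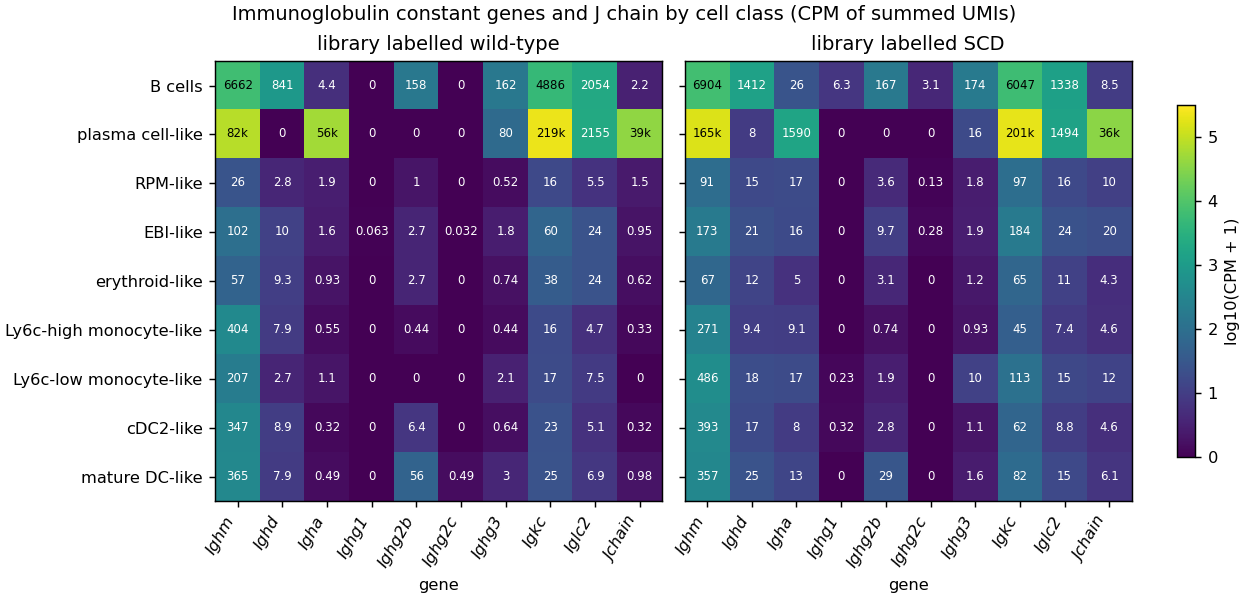
Level of each gene in CPM of summed UMIs by cell class and library, coloured by log10(CPM + 1) and printed in each field (k marks a value divided by 1000). Plasma cell-like and B lymphocyte-like cells hold the highest levels of Ighm and Igkc, though not of every gene. Ighm exceeds Igkc by 4.31 to 24.8 times in the 4 classes of monocytes and dendritic cells.

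For each of Ighm and Jchain, the genes outside the immunoglobulin loci with the most similar pattern were found over 42 clusters split by library, each with at least 50 cells, among 13003 genes. For Ighm these were Foxp1 (Pearson's r of log2(CPM + 1) of 0.88), Cd37 (0.87), Dennd5b (0.87), Cd69 (0.87) and Gm8369 (0.85). For Jchain these were Derl3 (0.81), Gm44260 (0.71), Ly6k (0.69), Eaf2 (0.68) and Zfp354c (0.65), of which Derl3 and Eaf2 were among the markers used to find plasma cells. The points share 2 libraries and their free RNA, and plasma cell-like cells were left in their clusters here.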

How the data were processed

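Single-cell 3' libraries (10x Genomics v3.1) were made from F4/80-enriched spleen, 1 per genotype. The authors deposited filtered matrices of raw UMI counts per gene and barcode. The submitters' processing notes name Cell Ranger 4.0.0 and GRCm38.p6, while the matrix headers give software version 3.1.0. How multi-mapped reads were treated is not given in the sources used here.

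Barcodes were kept if they had 500 to 5000 genes and if fewer than 15% of their UMIs were mitochondrial and fewer than 30% from genes of ribosomal proteins. Size factors came from scran 1.30.0 (R 4.3.3). The 2000 most variable genes, without immunoglobulin, hemoglobin and sex-linked genes, gave 30 components, 15 neighbours and Leiden clusters at resolution 1 (scanpy 1.11.5, python-igraph 0.11.9). Clusters were named from marker lists. RPM-like and EBI-like clusters had macrophage markers at least 4 times as high as in the main B cluster, EBI-like ones also erythroid markers at least 2 times as high. Other classes needed at least 3 markers at 2 times or more the level of the remaining cells. The limits for names and for plasma cells (7 of 11 markers) were set after the data had been seen. B lymphocyte-like clusters with 20% or more called doublets were kept apart. Doublets were scored with Scrublet and left in. Its threshold marked 0 cells of the WT-labelled library, so the highest-scoring 10% were taken there, and 1679 cells (13.7%) of the SCD-labelled library.

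Deposited counts were summed per class and library as CPM, with exact Poisson, binomial and conditional binomial intervals. A gene was compared by fold with at least 100 UMIs in a class over both libraries. A count of 0 was taken to allow 3. The fold calculation was tested on simulated data. Genes and lists (B cell receptor, class switch, secretory pathway, immunoglobulin receptors) were chosen with earlier results of these data known. List genes are named when past a log2 ratio of 1 or among the 4 most abundant, except some that are not reported here, and B subset markers were named after their values were seen. Coordinates and sequences are from GENCODE M21 (GRCm38). Alternatives were set for filters, doublets, clustering, scaling, thinning and calling rules.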

Additional observations from a re-analysis of the deposited data

Results flagged for a closer look

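With 1 library per genotype, there were no samples of a group to compare with each other. What follows are genes whose difference between the libraries ran in opposite directions in different cell classes, each with an interval for counting error that excludes 0. The difference between classes was not tested.

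Ighm was lower in the SCD-labelled library in Ly6c-high monocyte-like cells (log2 ratio of SCD over wild-type −0.58) and higher in RPM-like cells (1.82). Ighg2b was lower in cDC2-like (−1.19) and mature DC-like cells (−0.96) and higher in EBI-like cells (1.82). Iglc2 was lower in B lymphocyte-like (−0.62) and erythroid-like cells (−1.19) and higher in RPM-like cells (1.52). The cDC2-like and erythroid-like values rest on 20 and 26 Ighg2b and on 389 and 17 Iglc2 UMIs. The EBI-like value rests on 87 and 35 Ighg2b UMIs, of which the 1% of cells with the most held 100% and 97.1%, and a single cell held 20 of the 35.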

How the results depend on the processing

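For Ighm in B lymphocyte-like cells the log2 ratio of SCD over wild-type was 0.16 with at least 200 genes and no upper limit, 0.45 without doublets, 0.52 at resolution 0.5, −0.0028 with library-size factors and 0.77 with each library clustered on its own. For Igkc it was 0.45, 0.77, 0.78, 0.23 and 1.05 in the same order, 0.14 at resolution 2 and 0.23 as a mean of per-cell CPM. Ighd UMIs per 100 Ighm UMIs in the WT-labelled library were 11.8 without doublets, 14.8 at resolution 2 and 15.8 as a mean of per-cell CPM, which gave 23.2 in the SCD-labelled library. The cause was not tested.

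With at least 20 UMIs for an isotype call, 31.5% and 47.8% of B lymphocyte-like cells were called Ighm and 0.577% and 0.868% Ighg2b. With at least 80% of heavy-chain UMIs, 60.6% and 47.5% were called Ighm, and 1.504% of the SCD-labelled library Ighg2b. Without doublets 3 plasma cell-like cells called Ighm were left. The λ share of light-chain UMIs was 29.6% and 18.1% with Iglc2 alone, and 45.9% in the WT-labelled library without doublets, an alternative chosen after seeing the data.

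In RPM-like cells Ighm was at 51.6 and 151.0 CPM with at least 200 genes and no upper limit, and Igkc at 151.4 CPM in the SCD-labelled library. With plasma cell-like cells left in their clusters, also chosen after seeing the data, they were at 239.6 and 264.3 CPM there. Cells with an Igkc UMI were 1.13% and 5.998% thinned to 500 UMIs and 2.79% and 16.2% thinned to 2000. With at least 20 UMIs per gene, 436 genes were past a log2 ratio of 1 upward and 322 downward in B lymphocyte-like cells, and 1556 and 747 in RPM-like cells.

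Of the values under alternatives, 78 stayed within the interval or limit of the value reported and 66 moved. No paired analysis was possible because each group has 1 library and the labels carry no replicate numbers, and there was no replicate to leave out. Counts of 0 to 50 UMIs, as for Ighg1, Ighg2c and Jchain in B lymphocyte-like cells, limit what can be compared, and intervals hold no spread between mice.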

Other observations

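Reads of the rearranged variable genes were few, as 3' libraries rarely reach them, but some plasma cell-like cells held many. Ighv4-1 had 96 UMIs in the IgA cell of the WT-labelled library and 150 and 137 UMIs in a pair of IgM cells of the SCD-labelled library, and it was the only Ighv gene counted in each. No other of the 14 cells held more than 5 Ighv UMIs. Igkv16-104 led the light-chain variable UMIs in 3 cells of the SCD-labelled library, with 28, 28 and 4 UMIs. A further IgM cell held 57 UMIs of Iglv1 among 62 light-chain variable UMIs, while 1.35% of its light-chain constant UMIs were λ. In the IgA cell of the WT-labelled library Iglv1 also led, with 6 of 11 UMIs, beside a λ share of 1.17%.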
